A study of Mus musculus with 12 samples.

Results

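The 10 genes described here mark the macrophages that live in the heart and the machinery of MHC class II antigen presentation. They were chosen by gene symbol and comprise Csf1r, Adgre1, Cd68, Cd163, Mrc1, Lyve1, Cx3cr1, Ccr2, H2-Aa and Cd74. Each symbol matched 1 row among the 52858 genes of the files, and 10 of 10 were among the 15240 genes with enough reads to be tested. RNA was measured by sequencing in 12 hearts of male mice aged 3 to 5 months, 3 hearts in each of 4 groups. C57-non-IR hearts came from C57BL/6J mice and were perfused continuously for 80 min, and C57-IR hearts from the same strain were, after equilibration, kept without flow for 20 min and then reperfused for 40 min (ischemia and reperfusion, IR). The same perfusions were used for hearts of Slit2-Tg mice, in the groups Slit2-non-IR and Slit2-IR. These mice carry a full-length human Slit2 cDNA behind a CMV promoter, which is active in many cell types and is not specific to the heart or to macrophages, and they were produced in C57 × CBA hybrid oocytes. All hearts were isolated and perfused with buffer, so the cells measured were those already in the heart and no blood cells could arrive during reperfusion. Some blood was left in the hearts, as 5 erythroid genes summed to 1.48 to 49.0 FPKM over the 12 libraries. RNA came from heart tissue with its many cell types, so fewer macrophages and less RNA per macrophage cannot be told apart.

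Resident cardiac macrophages depend on signals through the CSF1 receptor, clear dying cells and debris, and carry scavenger receptors that mark the subsets maintained without input from blood monocytes. Macrophages that come from monocytes carry the chemokine receptor Ccr2. MHC class II molecules are made by macrophages, dendritic cells and B cells, which load them with peptides for CD4+ T cells. The invariant chain Cd74 escorts the class II dimer until the peptide is loaded, and the coactivator Ciita switches the class II genes on together.

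The libraries held between 16601154 and 24841291 reads on genes, as recovered from the deposited FPKM values (fragments scaled by gene length and by sequencing depth). Mitochondrial transcripts took 19.7% to 26.0% of the reads. The expression of the mouse Slit2 gene was 0.1801 to 0.2816 FPKM in the 6 C57BL/6J hearts and 0.0847 to 0.813 FPKM in the 6 Slit2-Tg hearts, and reads of the human transgene need not be counted on this mouse gene, so it does not check the genotype. Slit2-IR library 1 held 1650 FPKM of summed atrial genes against 19.9 to 227 FPKM in the other 11 libraries. The summed macrophage markers that are not among the 10 genes ranged from 336 to 654 FPKM. The defining lymphocyte and neutrophil genes were at or near 0: the 10 B, T and NK cell genes summed to 0.360 to 0.820 FPKM, the 6 neutrophil genes to 0.159 to 1.39 FPKM, and Ly6g was listed at 0 in all 12 libraries. The 10 dendritic cell genes summed to 3.63 to 5.33 FPKM.

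The 10 genes spanned a wide range of levels per unit of gene length. The mean over the 12 libraries was 92.5 FPKM for Cd74, 26.4 for H2-Aa, 16.2 for Lyve1, 11.4 for Csf1r, 9.99 for Cd163, 7.31 for Cd68, 7.14 for Mrc1, 4.74 for Adgre1, 0.606 for Cx3cr1 and 0.384 for Ccr2. Cd74 was above H2-Aa, Mrc1 above Adgre1 and Adgre1 above Cx3cr1 in 12 of 12 libraries. The other neighbours changed places between libraries. Csf1r was above Cd163 in 7 of 12 libraries and Cd68 above Mrc1 in 7 of 12. The lowest library of Ccr2 held 15 reads and that of Cx3cr1 held 23 reads, which gives a counting error of 25.8% and 20.9% of the value, whereas it was at most 10.1% for the other 8 genes.

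**Figure D1:**
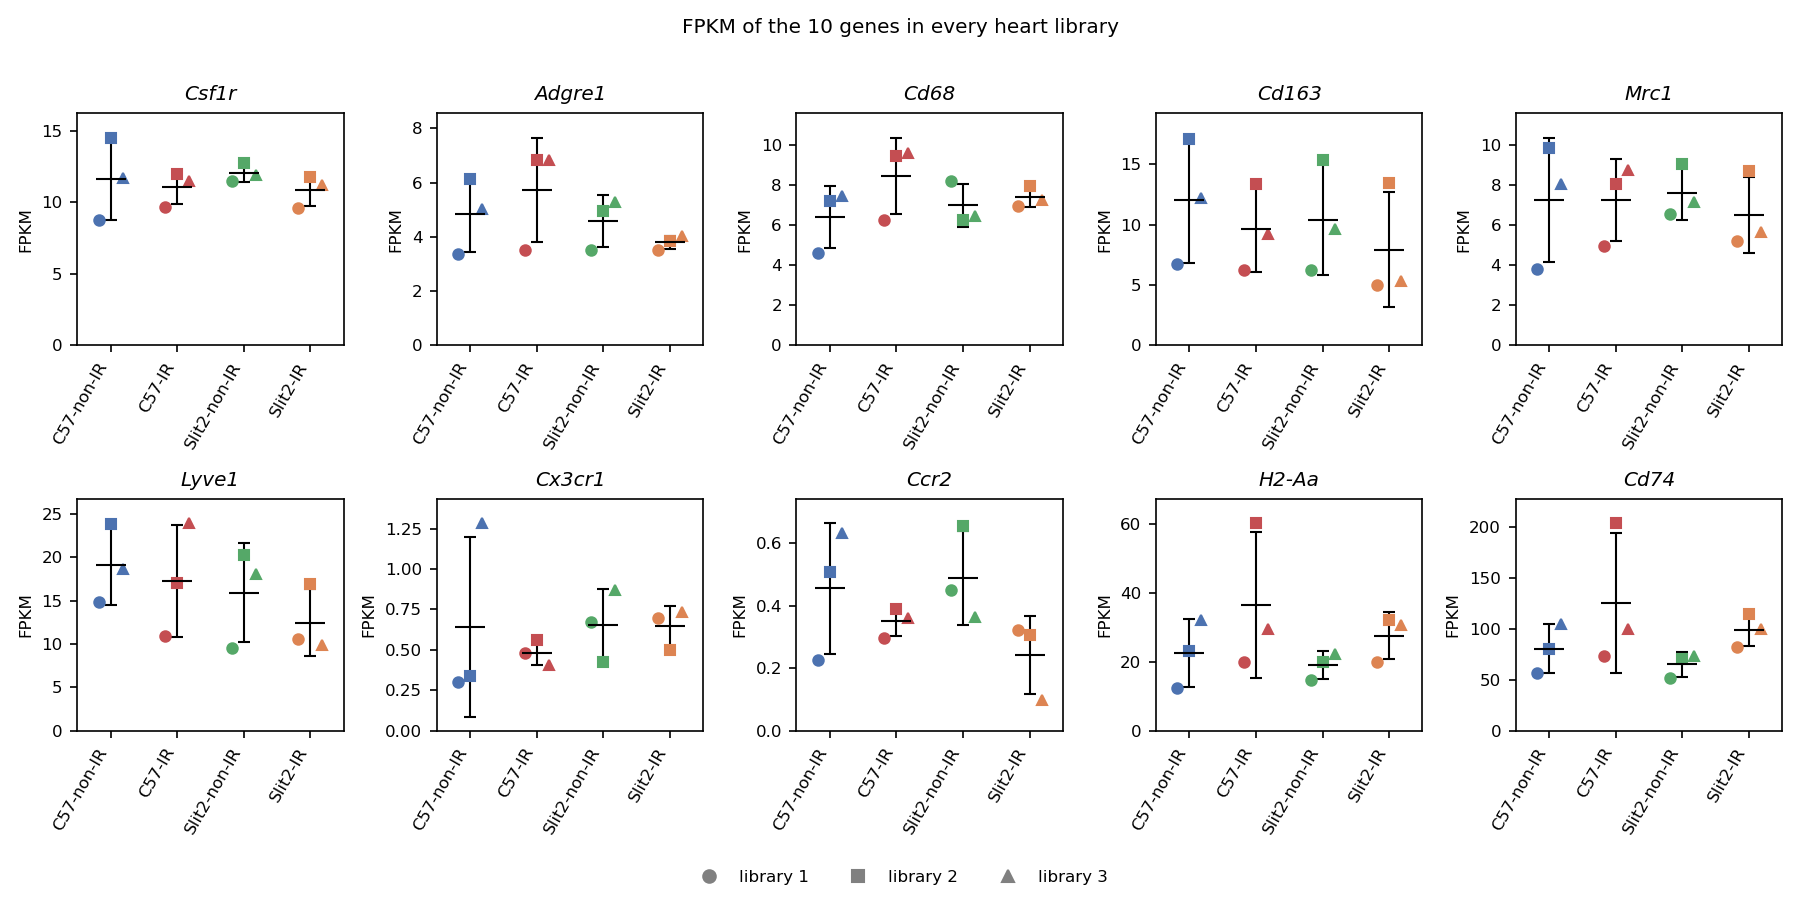
FPKM of each of the 10 genes (vertical axes, starting at 0, with a scale of their own) in the 12 heart libraries, by group. Circles, squares and triangles are the libraries numbered 1, 2 and 3, and the horizontal bar and whiskers are the group mean and SD (n = 3). Cd74 and H2-Aa reached 204 and 60.04 FPKM in C57-IR library 2, and the circles were the lowest points of Csf1r, Adgre1, Cd163 and Mrc1 in each group.

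Among the genes that mark macrophages as a whole, Csf1r encodes the receptor for the growth factors Csf1 and Il34. Its FPKM in libraries 1, 2 and 3 was 8.73, 14.5 and 11.7 in C57-non-IR hearts, 9.69, 11.97 and 11.5 in C57-IR, 11.5, 12.7 and 11.9 in Slit2-non-IR and 9.61, 11.8 and 11.2 in Slit2-IR hearts. The 4 groups overlapped, and with a 1.66-fold range over the 12 libraries Csf1r varied the least of the 10 genes. The Csf1r gene (chromosome 18, 61105572 to 61132149, plus strand, GRCm38) shares 873 bases of exon with Hmgxb3 on the opposite strand, and the use of strand in the counting is not given in the sources used here, so part of its reads may belong to that gene. Adgre1, which encodes the surface protein F4/80, was at 3.37, 6.14 and 5.04 FPKM in C57-non-IR hearts, 3.51, 6.84 and 6.84 in C57-IR, 3.51, 4.97 and 5.27 in Slit2-non-IR and 3.52, 3.84 and 4.02 in Slit2-IR hearts. The library numbered 1 was at 3.37 to 3.52 FPKM in each group, and the groups differed only in libraries 2 and 3, which were lower in Slit2-IR hearts than in the other groups. Cd68, a glycoprotein of macrophage lysosomes, was at 4.62, 7.19 and 7.45 FPKM in C57-non-IR hearts, 6.24, 9.48 and 9.63 in C57-IR, 8.21, 6.28 and 6.47 in Slit2-non-IR and 6.98, 7.93 and 7.25 in Slit2-IR hearts. Cd68 was highest in C57-IR libraries 2 and 3, and all pairs of groups overlapped.

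The scavenger receptor group marks the resident subset. Cd163 takes up complexes of hemoglobin and haptoglobin, Mrc1 is the mannose receptor, and Lyve1 binds hyaluronan. Cd163 was at 6.71, 17.1 and 12.2 FPKM in C57-non-IR hearts, 6.25, 13.4 and 9.24 in C57-IR, 6.25, 15.4 and 9.68 in Slit2-non-IR and 4.997, 13.4 and 5.30 in Slit2-IR hearts. In each group Cd163 was lowest in library 1 and highest in library 2, and this spread within groups was larger than the spread between group means, which ran from 7.91 ± 4.78 (SD, n = 3) in Slit2-IR to 12.01 ± 5.19 in C57-non-IR hearts. Mrc1 was at 3.82, 9.85 and 8.05 FPKM in C57-non-IR hearts, 4.94, 8.06 and 8.74 in C57-IR, 6.54, 9.04 and 7.12 in Slit2-non-IR and 5.18, 8.67 and 5.67 in Slit2-IR hearts. Lyve1 was at 14.8, 23.9 and 18.7 FPKM in C57-non-IR hearts, 10.9, 17.0 and 23.9 in C57-IR, 9.51, 20.3 and 18.0 in Slit2-non-IR and 10.6, 16.9 and 9.93 in Slit2-IR hearts. The groups overlapped for Mrc1 and Lyve1, and the lowest group mean of each was that of the Slit2-IR hearts, at 6.51 ± 1.89 FPKM for Mrc1 and 12.5 ± 3.85 for Lyve1.

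Lyve1 is also made by lymphatic endothelium. Over the 12 libraries the Pearson correlation of Lyve1 with 15 other genes of resident macrophages had a median of 0.60 and ran from 0.12 to 0.87 (Selenop), and with 6 lymphatic genes it had a median of -0.03 and ran from -0.46 (Prox1) to 0.64 (Mmrn1). These are correlations of log2(FPKM + 1) between genes of the same libraries, given as a description.

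The chemokine receptors were the lowest of the 10 genes. Cx3cr1, the receptor for the membrane chemokine Cx3cl1, was at 0.2998, 0.339 and 1.28 FPKM in C57-non-IR hearts, 0.483, 0.563 and 0.405 in C57-IR, 0.674, 0.423 and 0.868 in Slit2-non-IR and 0.6998, 0.498 and 0.737 in Slit2-IR hearts. C57-non-IR library 3 stood above the other 11 libraries, and the annotated span of this gene holds several other genes, with 78 bases of exon shared with an antisense transcript. Ccr2, the receptor for Ccl2 and Ccl7 that brings in monocytes, was at 0.226, 0.507 and 0.632 FPKM in C57-non-IR hearts, 0.297, 0.390 and 0.362 in C57-IR, 0.449, 0.654 and 0.362 in Slit2-non-IR and 0.321, 0.307 and 0.0995 in Slit2-IR hearts. The 3 Slit2-IR values of Ccr2 were below the 3 Slit2-non-IR values. The 10 monocyte genes summed to 1.67 to 10.9 FPKM. Among them Hp, which other cells also make, reached 6.95 FPKM and Vcan 2.42 FPKM, while Ly6c2, Plac8 and Chil3 were at no more than 0.292, 0.424 and 0.106 FPKM in any library.

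The class II genes were the highest of the 10. H2-Aa encodes the alpha chain of the I-A molecule on chromosome 17 (34282744 to 34287827, minus strand, GRCm38). Class II promoters are known for an X box and a Y box at a fixed spacing, to which the RFX and NF-Y complexes bind before Ciita joins them. The stretch from 120 to 21 bases before the start site is shown for H2-Aa and for the beta chain gene H2-Eb1, because these genes varied together with Cd74 in the 12 libraries. The sequences are from RefSeq (GRCm38.p6, chr17:34287844-34287943 on the minus strand and chr17:34305747-34305846 on the plus strand), and capitals mark the letters GCAAC of the X box and CTGATTGG, which holds the inverted CCAAT of the Y box.
H2-Aa: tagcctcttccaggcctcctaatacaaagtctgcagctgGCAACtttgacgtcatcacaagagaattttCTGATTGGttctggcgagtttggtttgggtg
H2-Eb1: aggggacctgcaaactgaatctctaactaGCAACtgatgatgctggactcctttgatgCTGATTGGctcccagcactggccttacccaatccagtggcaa
The GCAAC began 30 bases before the CTGATTGG in H2-Aa and 29 bases before it in H2-Eb1. On either strand, CTGATTGG occurred in 4.1% and GCAAC in 35.2% of 32851 mouse promoters of 300 bases (250 before and 50 after the start), and GCAAC lay 25 to 35 bases before CTGATTGG on the same strand in 22 of them, or 0.067%. The letters and the spacing were chosen with the H2-Aa and H2-Eb1 sequences in view. A promoter was at hand for 6 of the 10 genes, of which 1 (H2-Aa) held this arrangement, and for 7 of 8 other class II genes, of which 3 (H2-Eb1, H2-Eb2 and H2-Oa) did. Of the latter, H2-Eb2 and H2-Oa were too low to be tested in these hearts.

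Cd74 was at 56.6, 79.8 and 105 FPKM in C57-non-IR hearts, 73.7, 204 and 99.4 in C57-IR, 51.2, 70.8 and 73.7 in Slit2-non-IR and 82.4, 114 and 99.6 in Slit2-IR hearts. H2-Aa was at 12.4, 23.2 and 32.2 FPKM in C57-non-IR hearts, 19.8, 60.04 and 29.3 in C57-IR, 14.6, 20.01 and 22.3 in Slit2-non-IR and 19.8, 32.1 and 30.7 in Slit2-IR hearts. C57-IR library 2 was the highest of the 12 for both genes. The Cd74 gene lies on chromosome 18 (60803848 to 60812646, plus strand, GRCm38). In Slit2-Tg hearts the 3 IR values of Cd74 were above the 3 non-IR values, and those of H2-Aa overlapped.

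Cd74 and H2-Aa kept close to a fixed ratio. Cd74 varied 3.97-fold and H2-Aa 4.85-fold over the 12 libraries, while the ratio of Cd74 to H2-Aa in FPKM stayed between 3.24 and 4.57, with a median of 3.48. Their Pearson correlation was 0.98 and Spearman's rho 0.91 over 12 libraries, and Pearson's r was 0.96 over the 10 libraries left without the 2 farthest from the median of H2-Aa. The 5 non-member genes most like H2-Aa, among 11184 genes with a mean of at least 1 FPKM, were H2-DMa (r = 0.97), H2-Eb1 (0.96), Gm9892 (0.93), H2-DMb1 (0.92) and Zfp868 (0.92). H2-DMa, H2-Eb1 and H2-DMb1 belong to the same class II locus, where H2-DM is the catalyst of peptide loading, and Gm9892 is a processed pseudogene. H2-Ab1, which encodes the beta chain that pairs with H2-Aa, had r = 0.90. Ciita, the coactivator, had r = 0.19 with H2-Aa at 0.176 to 0.520 FPKM and at most 63 reads in a library.

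**Figure D2:**
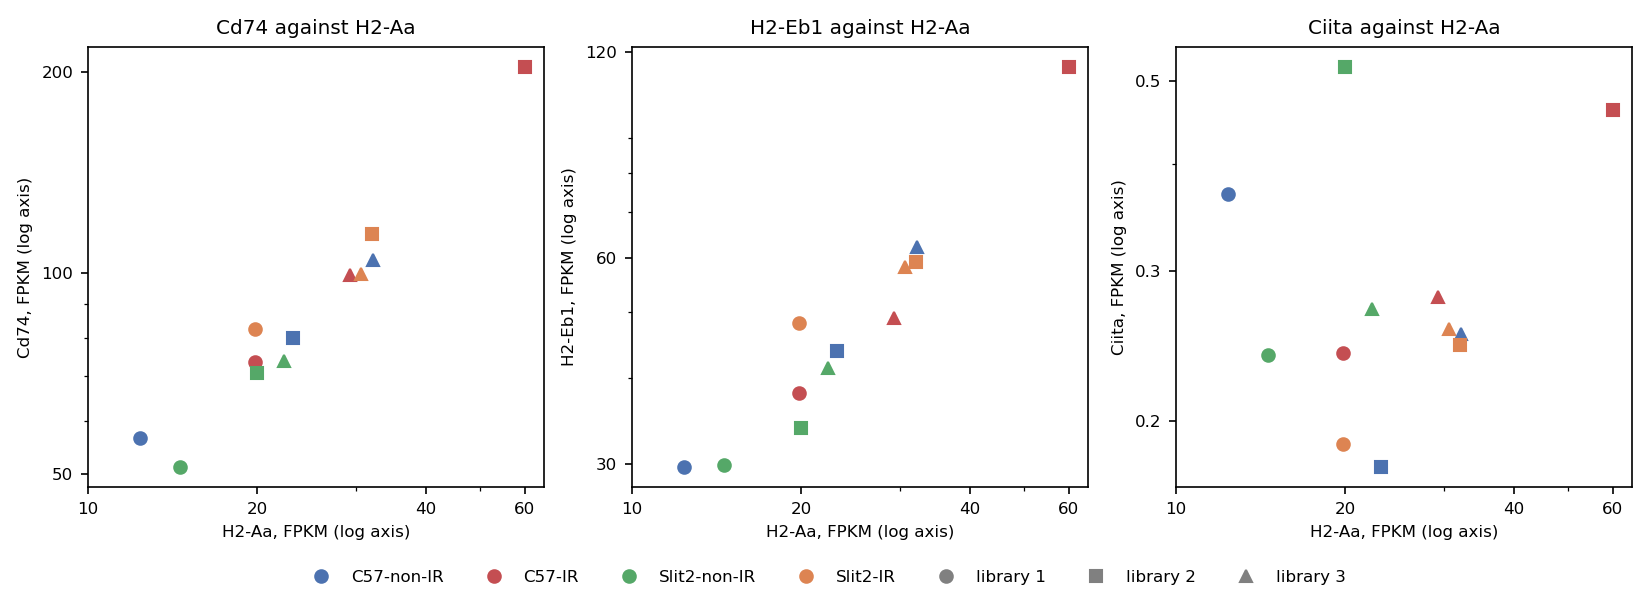
FPKM of Cd74, H2-Eb1 and Ciita (vertical log axes) against FPKM of H2-Aa (horizontal log axes) in the 12 libraries. Colours are the 4 groups and circles, squares and triangles the libraries numbered 1, 2 and 3. Cd74 and H2-Eb1 rise along 1 line with H2-Aa up to C57-IR library 2 (r = 0.98 and 0.96), and Ciita shows no such line (r = 0.19).

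The scavenger receptors and Csf1r formed a second group that varied together. Over the 12 libraries r was 0.92 for Csf1r and Mrc1 (0.86 over the 10 libraries without the 2 farthest from the median of Csf1r), 0.84 for Cd163 and Mrc1, and 0.84 for Cd163 and Lyve1. Cd74 had r = 0.28 with Csf1r, 0.39 with Cd163 and 0.28 with Lyve1, but 0.63 with Cd68 and 0.57 with Adgre1. As deviations from the group means, Cd74 had r = 0.62 with Csf1r, 0.71 with Cd163 and 0.74 with Adgre1. Over all 12 libraries Cx3cr1 had r between -0.22 and 0.26 with the other 9 genes. The 5 non-member genes most like Csf1r were Aldh3b1 (r = 0.90), Clec4a3 (0.89), Pld4 (0.89), the processed pseudogene Gm10698 (0.88) and Srp54a (0.88), which the files list under more than 1 identifier. The same libraries were low across this group. The library numbered 1 was the lowest of its group in 4 of 4 groups for Csf1r, Adgre1, Cd163, Mrc1, H2-Aa and Cd74, in 3 of 4 for Lyve1 and Cd68, in 2 of 4 for Ccr2 and in 1 of 4 for Cx3cr1. The summed 20 macrophage markers outside the 10 genes and the summed 5 fibroblast genes were also lowest in library 1 in 4 of 4 groups, and the summed 6 cardiomyocyte genes were highest there in 4 of 4. Csf1r had a median r of -0.56 with these 6 cardiomyocyte genes and of 0.66 with the 20 macrophage markers. The part of tissue makeup in the levels of the 10 genes was not tested.

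**Figure D3:**
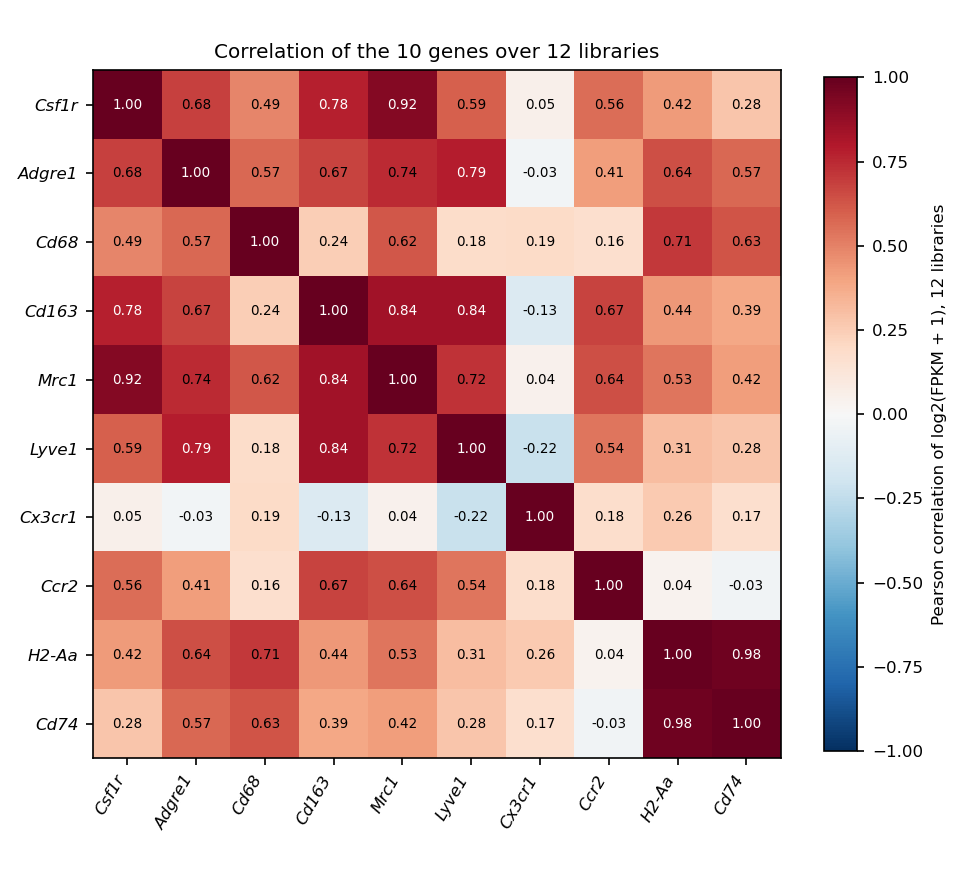
Pearson correlation of log2(FPKM + 1) between each pair of the 10 genes over 12 libraries, with the value in each cell and a colour scale from -1 to 1. Cd74 and H2-Aa form a pair (0.98), Csf1r, Mrc1, Cd163, Lyve1 and Adgre1 a block (0.59 to 0.92), and Cx3cr1 has values between -0.22 and 0.26.

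IR against non-IR hearts asked whether the markers moved within 40 min of reperfusion. No member passed the test over both genotypes, whether of the class II or of the resident macrophage genes. The mean log2 difference of FPKM + 1 was 0.57 for Cd74 (1.49-fold, 95% interval 0.05 to 1.09, limma adjusted p = 0.257) and 0.56 for H2-Aa (1.47-fold, -0.06 to 1.18, limma adjusted p = 0.379). Cd68 was higher by 0.21 (-0.07 to 0.50). The other 7 genes were lower, by log2 differences of -0.33 for Cd163 (-0.9991 to 0.33), -0.24 for Lyve1 (-0.74 to 0.26), -0.18 for Ccr2 (-0.35 to -0.01, limma adjusted p = 0.294), -0.09 for Csf1r (-0.33 to 0.15), -0.08 for Mrc1 (-0.54 to 0.38), -0.05 for Cx3cr1 (-0.34 to 0.24) and -0.01 for Adgre1 (-0.37 to 0.35). With a block for the replicate number the adjusted p of limma was 0.0855 for Cd74, 0.103 for Cd163 and 0.110 for H2-Aa. The interval of Csf1r was the narrowest among the genes above 1 FPKM, and that of Cd163 the widest of the 10.

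Counted over the 10 genes, limma called 0 at an adjusted p under 0.05 where 3.49% of the 15240 tested genes were called. At an unadjusted p under 0.05 it found 2 (Cd74 and Ccr2), a share of the 10 beside 15.9% of all tested genes, and limma-voom on recovered reads called 0 and found 2 unadjusted. The median log2 difference of the 10 genes was -0.06 and that of all tested genes 0.00. Ccr2 depends on the scale because its level is below the pseudocount, with a log2 difference of -0.53 at a pseudocount of 0.1 and -0.70 with limma-voom, neither of which was called.

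**Figure D4:**
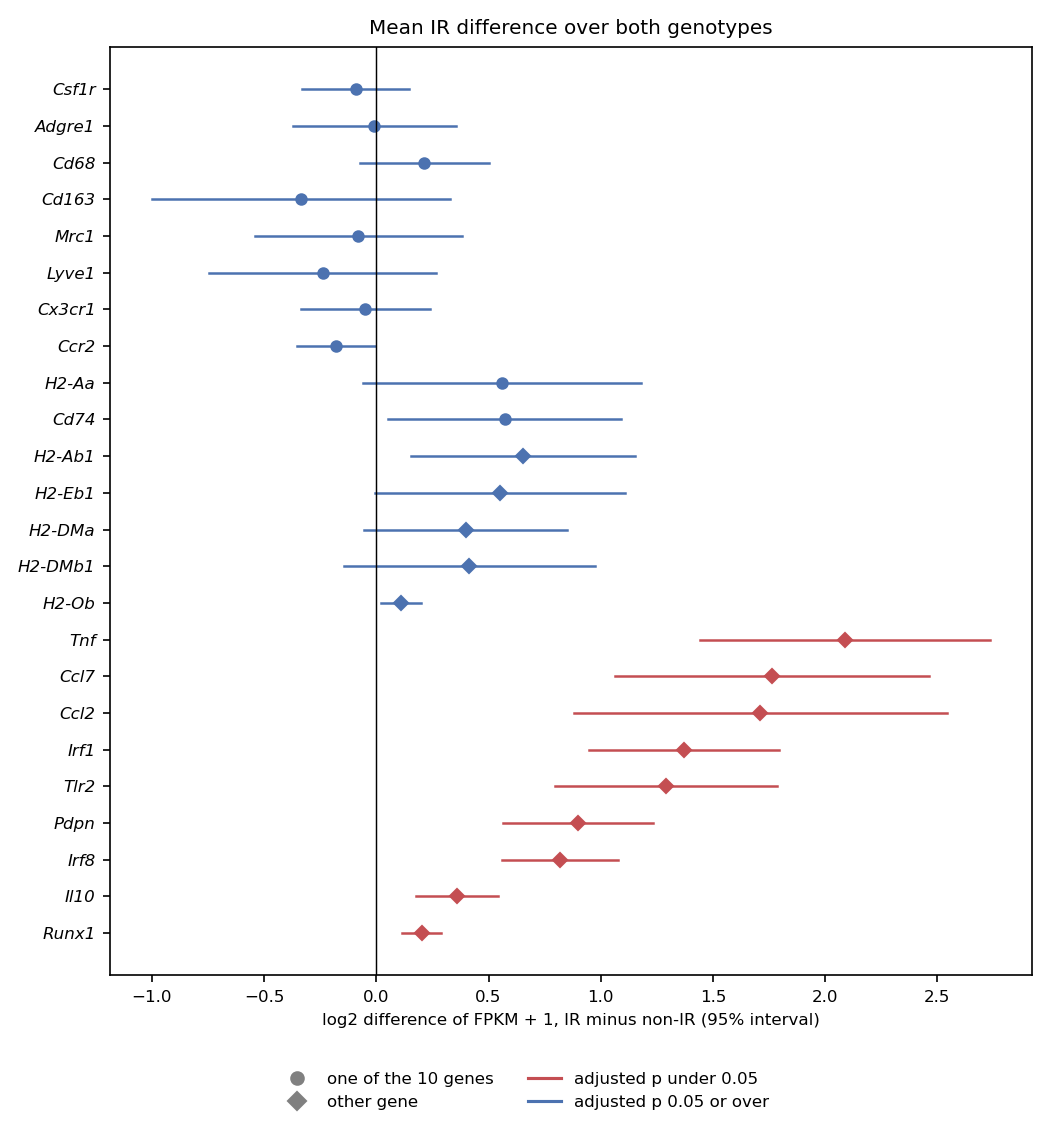
Mean log2 difference of FPKM + 1, IR minus non-IR over both genotypes (horizontal axis), with 95% intervals from limma on 12 libraries, for the 10 genes (circles) and other genes (diamonds). The diamonds are the other tested class II molecules and the 9 list genes drawn because they were called. The remaining genes of the lists, which were not called, are not drawn. Red marks an adjusted p under 0.05 over all tested genes. Cd74 (0.57) and H2-Aa (0.56) lie with the other class II genes to the right of 0, and the 9 red genes lie between 0.20 (Runx1) and 2.09 (Tnf).

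The other class II molecules had the same sign. The 5 tested (H2-Ab1, H2-Eb1, H2-DMa, H2-DMb1 and H2-Ob) were higher in IR hearts with a median log2 difference of 0.41, and limma called 0 of 5, with 2 at an unadjusted p under 0.05. H2-Ab1 was higher by 0.65 (95% interval 0.16 to 1.15, limma adjusted p = 0.164) and H2-Eb1 by 0.55 (-0.00 to 1.11, adjusted p = 0.320). The 5 summed to 56.7 to 79.02 FPKM in Slit2-non-IR and 105 to 113 FPKM in Slit2-IR hearts, which did not overlap, and to 57.3 to 116 FPKM in C57-non-IR and 75.8 to 219 FPKM in C57-IR hearts, which did. Of 8 tested genes for class II processing (such as Ctss and Lgmn, proteases of the endosome) 0 were called. Of 12 tested genes for class II control, 1 rose, namely Irf1, a transcription factor of the interferon response, with a log2 difference of 1.37 (95% interval 0.95 to 1.79, limma adjusted p = 0.00393), while Ciita differed by -0.03 (-0.17 to 0.11).

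The activation list holds genes that macrophages and other cells switch on under stress. Of 9 tested, 3 rose and the other 6 were higher without passing the test. Tnf, the inflammatory cytokine, was at 1.08 to 2.46 FPKM in the 6 non-IR hearts and 6.89 to 27.5 FPKM in the 6 IR hearts, with a log2 difference of 2.09 (limma adjusted p = 0.00393). Tlr2, a receptor for microbial and damage signals, rose by 1.29 (adjusted p = 0.0101). The cytokine Il10 rose by 0.36 (adjusted p = 0.0412), which passed in 6 of 19 alternative fits. C57-IR library 2, the highest for Cd74 and H2-Aa, was also the highest for Tnf (27.5 FPKM), Irf1 (29.1), Irf8 (4.15) and Ccl2 (105). Cd74 had a median r of 0.81 with the 9 activation genes over the 12 libraries, without a test.

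Among the ligands of the 10 genes, 2 of 9 tested rose, both ligands of Ccr2. Ccl7 rose by 1.76 (limma adjusted p = 0.0118) and Ccl2 by 1.71 (adjusted p = 0.0331), from 6.02 to 21.6 FPKM in non-IR hearts to 21.9 to 105 FPKM in IR hearts, while Ccr2 itself was at most 0.654 FPKM. The call of Ccl2 passed in 9 of 20 alternative fits and that of Ccl7 in 20 of 20. The chemokines Ccl8 and Ccl12 of the same list were not called. Ccl12 was at 2.19 to 10.45 FPKM in non-IR hearts and 2.56 to 10.57 FPKM in IR hearts. Csf1, a ligand of Csf1r, was higher by 0.39 (95% interval 0.17 to 0.62, limma adjusted p = 0.0624), and Il34, the other ligand, differed by -0.17 (-0.53 to 0.19). Of 10 control genes of macrophages (growth factors, transcription factors and the receptor Tgfbr2), Irf8 rose by 0.82 (limma adjusted p = 0.00419) and Runx1 by 0.20 (adjusted p = 0.0188). Of the lymphatic genes, Pdpn, which activated macrophages also make, rose by 0.90 (adjusted p = 0.00857).

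The further macrophage markers had no call without the block. Of 20 further macrophage markers, such as Fcgr1 (an Fc receptor, -0.13) and Mertk (a receptor for dying cells, -0.24), 7 were higher, 13 were lower and 0 were called, with a median log2 difference of -0.08. With a block for the replicate number 1 of the 20 was called, namely Cd14, a receptor for bacterial lipopolysaccharide, with a log2 difference of 0.66 (limma adjusted p = 0.0298, and 0.242 without the block). Of 15 tested genes of the resident subset, such as Timd4 (0.07) and Folr2 (0.08), 0 were called and the median was -0.05. Without the block no gene was called among 4 tested monocyte genes, 8 dendritic cell genes, 5 fibroblast genes, 5 endothelial genes and 6 cardiomyocyte genes. The same held for 4 atrial genes, 5 adipose genes, 2 lung genes, 4 erythroid genes, 1 neutrophil gene and 1 of the B, T and NK cell genes. With the block 1 of the 5 fibroblast genes was called, as higher in IR hearts, and the median log2 difference of the 5 was 0.35.

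Within each genotype the differences of Cd74 and H2-Aa were again above 0 and did not pass the test. In C57BL/6J hearts the log2 difference was 0.62 for H2-Aa (95% interval -0.26 to 1.49), 0.55 for Cd74 (-0.19 to 1.28), 0.35 for Cd68 (-0.06 to 0.76) and -0.10 for Ccr2 (-0.34 to 0.15). In Slit2-Tg hearts it was 0.60 for Cd74 (-0.14 to 1.33), 0.50 for H2-Aa (-0.37 to 1.38), 0.08 for Cd68 (-0.33 to 0.48) and -0.26 for Ccr2 (-0.51 to -0.02, limma adjusted p = 0.403). On other scales this difference of Ccr2 was larger, at -0.83 with a pseudocount of 0.1 and -1.13 with limma-voom, and was not called. Adgre1 differed by 0.19 in C57BL/6J hearts (-0.33 to 0.70) and by -0.21 in Slit2-Tg hearts (-0.72 to 0.31), so its mean of -0.01 averaged opposite signs. Cd163, Lyve1, Mrc1, Csf1r and Cx3cr1 differed by -0.26, -0.18, 0.05, -0.05 and -0.10 in C57BL/6J hearts. In Slit2-Tg hearts they differed by -0.41, -0.30, -0.21, -0.14 and -0.003. In C57BL/6J hearts limma called 0 of 10 beside 0.459% of all tested genes, and found 0 at an unadjusted p under 0.05 beside 8.96%. With a block for the replicate number it found 2 (H2-Aa and Cd74) beside 11% of all tested genes in that fit and called 0. In Slit2-Tg hearts it called 0 of 10 beside 0.525% and found 1 beside 11.2%, and with a block for the replicate number it found 3 (Cd163, Cd74 and Ccr2) beside 13.7% of all tested genes in that fit and called 0. In Slit2-Tg hearts 2 of 10 genes did not overlap between IR and non-IR hearts (Cd74 higher and Ccr2 lower), where 16.9% of all tested genes did not, and in C57BL/6J hearts all 10 genes overlapped, where 13.8% of all tested genes did not. Limma-voom called 0 in both genotypes and found 0 in C57BL/6J and 1 in Slit2-Tg hearts at an unadjusted p under 0.05. Both comparisons use these 3 hearts a group, so a log2 difference in Cd163 had an interval of 0.94 to either side.

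The genotypes were compared to ask whether Slit2-Tg hearts differ in these markers. After IR, 9 of the 10 genes had lower levels in the Slit2-IR group than in the C57-IR group, and no difference passed the test. The log2 difference was -0.45 for Adgre1 (95% interval -0.96 to 0.07, limma adjusted p = 0.9996), -0.41 for Lyve1 (-1.13 to 0.30), -0.32 for Cd163 (-1.26 to 0.62), -0.27 for H2-Aa (-1.15 to 0.60), -0.22 for Cd74 (-0.95 to 0.51), -0.15 for Cd68 (-0.56 to 0.25), -0.13 for Mrc1 (-0.78 to 0.52), -0.12 for Ccr2 (-0.37 to 0.12) and -0.02 for Csf1r (-0.36 to 0.32). Cx3cr1 was higher by 0.15 (-0.26 to 0.55). The median of the 10 genes was -0.19, and 50.1% of all tested genes were lower, with a median of 0.00. The 20 further macrophage markers were lower in 20 of 20 cases, with a median of -0.14 and 0 called. These genes share the libraries in which they vary, so their number does not add independent evidence. Genes of other tissues had lower values in some of these hearts as well: the 4 lung genes summed to 0.0582, 9.16 and 10.8 FPKM in C57-IR libraries 1, 2 and 3 and to 0.0751 to 0.173 FPKM in Slit2-IR hearts, and the 5 adipose genes to 0.105 to 17.2 FPKM in C57-IR and 0.772 to 10.02 FPKM in Slit2-IR hearts, with 5 of 5 lower. Other lists went the other way, with 4 of 4 tested atrial genes (median 1.13) and 4 of 5 fibroblast genes (median 0.05) higher in Slit2-IR hearts. The 5 atrial genes summed to 1650, 97.4 and 67.1 FPKM in Slit2-IR libraries 1, 2 and 3. C57-IR libraries 1, 2 and 3 held 98.2, 227 and 85.3 FPKM, so only Slit2-IR library 1 was above them. The part of these tissues in the result was not tested.

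Limma called 0 of the 10 genes in this comparison where 0.0459% of all tested genes were called, and found 0 at an unadjusted p under 0.05 where 3.16% were, and limma-voom also called 0 and found 0. With a block for the replicate number, Adgre1 (limma adjusted p = 0.998) and Cd163 (limma adjusted p = 0.9986) were under 0.05 unadjusted, beside 4.51% of all tested genes in that fit. No gene separated the 6 hearts, where 6.47% of all tested genes did. The differences of Adgre1, Lyve1, Cd68 and Ccr2 were below 0 in 21 of 21 alternatives, and that of Cx3cr1 was above 0 in 21 of 21. Those of Cd74 and of H2-Aa were above 0 without C57-IR library 2, and those of Csf1r and Mrc1 also changed sign without single libraries. Leaving out C57-IR library 2, which was picked for its high class II values, lowers the C57-IR level of these genes by construction. It was also the highest C57-IR library for Cd163 and Csf1r. Slit2-IR library 1, with the atrial genes, was the lowest of its group for Csf1r, Adgre1, Cd163, Mrc1, Cd68, H2-Aa and Cd74, so leaving it out raises their Slit2-IR level. Without C57-IR library 2 and Slit2-IR library 1, 4 of the 10 genes and 7 of the 20 further markers were lower. Cd74, H2-Aa and Cd163 were then higher in Slit2-IR hearts by 0.32, 0.36 and 0.15. Without the 4 libraries numbered 1, 9 of 10 genes and 18 of 20 markers were lower, and Adgre1 differed by -0.67 (limma adjusted p = 0.254).

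**Figure D5:**
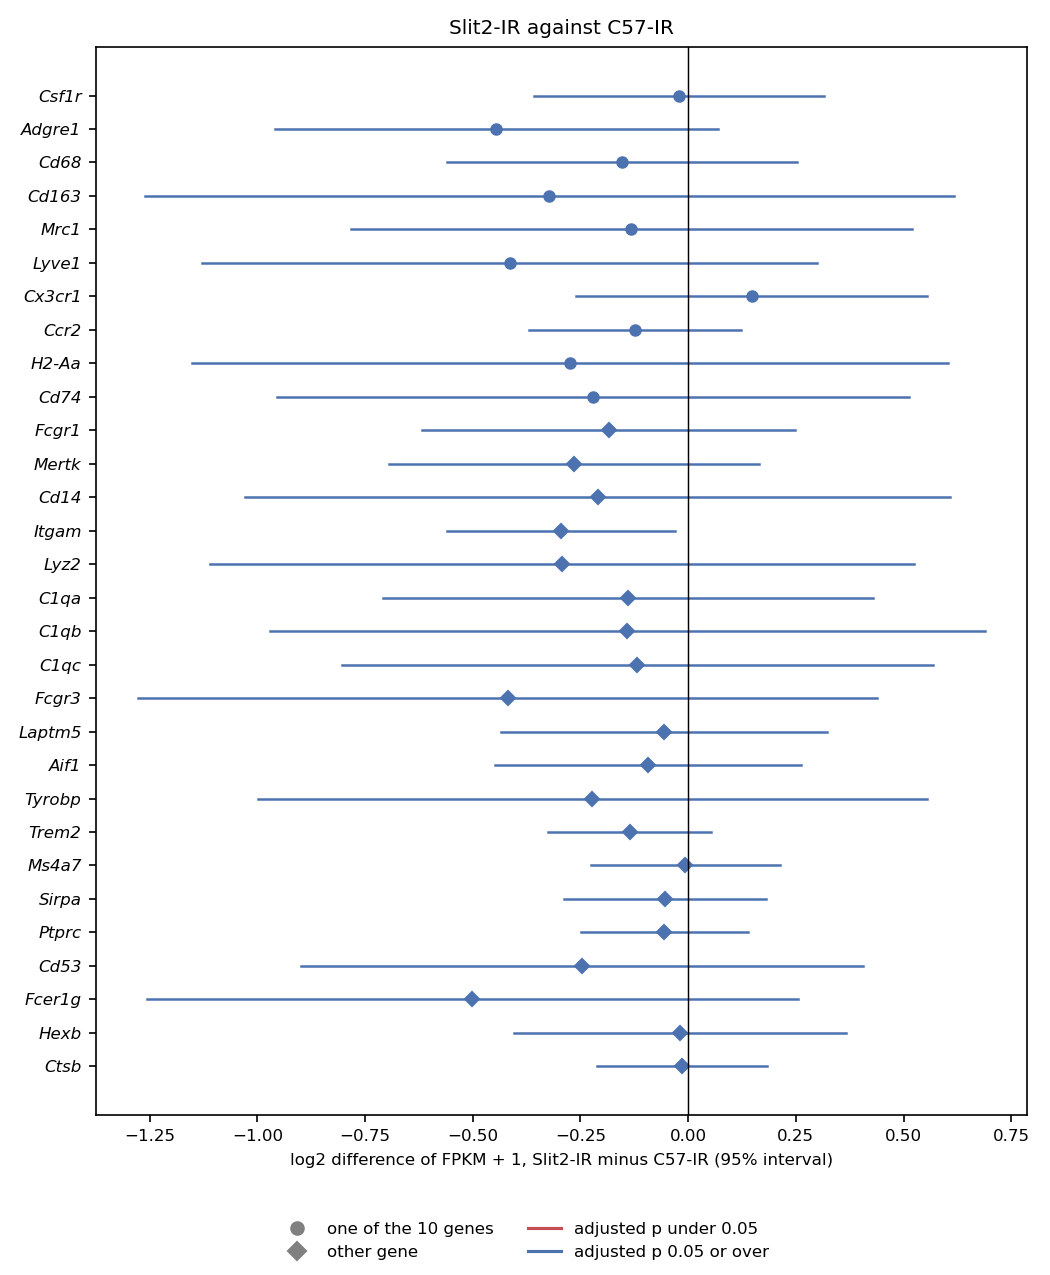
Log2 difference of FPKM + 1, Slit2-IR minus C57-IR hearts (horizontal axis), with 95% intervals from limma on 12 libraries, for the 10 genes (circles) and 20 further macrophage markers (diamonds). Of the 10 genes, 9 lie left of 0, from -0.45 (Adgre1) to -0.02 (Csf1r), each with an interval that holds 0, and no gene passed an adjusted p of 0.05, so no red line is drawn.

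The genotypes were also compared in hearts without IR. Against the C57-non-IR group, 5 of the 10 genes were higher and 5 were lower in the Slit2-non-IR group, with log2 differences from -0.29 (Lyve1, 95% interval -1.001 to 0.43) to 0.13 (Mrc1) and a median of -0.01. Limma called 0 of 10 beside 0.0394% of all tested genes and found 0 unadjusted beside 3.19%, as did limma-voom with 0 and 0. No member separated the 6 hearts, where 9.2% of all tested genes did. Averaged over both perfusions, the difference between the genotypes (Slit2-Tg minus C57BL/6J) ran from -0.35 (Lyve1) to 0.10 (Cx3cr1), and limma called 0 of 10 beside 0.131% and found 0 unadjusted beside 4.13%, as did limma-voom with 0 and 0.

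The interaction asked whether the IR difference of a gene differed between the genotypes. It ran from -0.39 for Adgre1 (95% interval -1.12 to 0.33, limma adjusted p = 0.9998) to 0.09 for Cx3cr1, and for Cd74 it was 0.05 (-0.99 to 1.09). Limma called 0 of 10 where it called 0% of all tested genes, and found 0 unadjusted beside 1.86%, and limma-voom called 0 and found 0. The widest interval, that of Cd163, reached 1.33 to either side (-1.47 to 1.19), so with 3 hearts a group differences within it could not be told from 0 for this gene. The narrowest was that of Ccr2 (-0.51 to 0.19), whose level is below the pseudocount.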

How the data were processed

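RNA of 12 mouse hearts was sequenced as paired-end reads from NEBNext Ultra libraries, 3 hearts in each of 4 groups. Strain and genotype came from the labels, and perfusion (IR or not) from the letters in the titles, set against the groups of the methods. The authors deposited FPKM per gene and library, made from reads aligned with HISAT2 to mm10 per the submitters' processing notes. How reads were counted, with which annotation and whether by strand, is not given in the sources used here. Multiplied by gene length and divided by the worth of 1 read in a library, 100% of values came out whole (within 0.02), and these worths followed median-of-ratios size factors, so the libraries were normalized together and reads per gene could be recovered (16601154 to 24841291 per library). Total reads of the sequencing runs are not known. No per-library column was left unused (0).

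FPKM is not a count, so limma (3.58.1, R 4.3.3) with a variance trend was run on log2(FPKM + 1) with the 4 groups in 1 fit and no covariate. On this scale the fold of a low gene comes out too small. The 15240 genes tested reached, in 3 or more libraries, what 10 reads are worth in the median library, and 15 or more reads in total. P-values were adjusted by Benjamini and Hochberg across these genes, per comparison, with a threshold of 0.05, and the steps were tested on simulated data. The 7 comparisons were the 4 pairs of groups, the interaction, and the mean difference of IR and of genotype. The p-values measure the spread between these hearts. Libraries that share a number were correlated in their deviations from the group means. The correlation was above 0.1 for 3 of 3 numbers between the Slit2-IR and C57-IR groups (0.154 to 0.362) and between both Slit2-Tg groups (0.143 to 0.294). Blocked values are therefore given there, and also for the mean differences, which hold all 4 groups. The pairing rests on these correlations, as the labels name no shared batch.

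The 10 genes and all lists were chosen with earlier results of these data known. Text names the 10 genes, the genes of a list with an adjusted p under 0.05 or else the first 2 to 4 tested, and the 5 genes most like Csf1r and H2-Aa. Genes named besides these, such as Selenop, Prox1 and Mmrn1 at the ends of a range, Cd14, and Hp, Vcan, Ly6c2, Plac8 and Chil3 among the monocyte genes, were chosen after their values were seen. Gene coordinates and overlaps are from GENCODE M21 and promoter sequences from RefSeq (GRCm38.p6). Alternatives were a pseudocount of 0.1, 2 other filters, fits of the compared groups alone, the replicate block, scaling to non-mitochondrial reads, limma-voom on recovered reads and leaving out each library, and, added after seeing the data, leaving out the 4 libraries numbered 1, or C57-IR library 2 with Slit2-IR library 1.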

Additional observations from a re-analysis of the deposited data

How the results depend on the processing

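Of the 10 genes, 0 were called in each of the 7 comparisons, in the main analysis and under each of the 20 or 21 alternatives a comparison had, with a smallest adjusted p of 0.0604 (Cd68, mean IR difference, the 4 libraries numbered 1 left out). A block for the replicate number left these counts at 0 and raised the count at an unadjusted p under 0.05 from 2 to 4 for the mean IR difference (18.5% of all tested genes with the block) and from 0 to 3 for the mean genotype difference (5.98%). Over all tested genes the block moved the calls from 70 to 174 in C57-IR against C57-non-IR, from 80 to 202 between the Slit2-Tg groups and from 6 to 2 in Slit2-non-IR against C57-non-IR. In the first and the last of these, not all 3 correlations of same-numbered libraries were above 0.1 (0.295, 0.126 and 0.0833, and 0.324, 0.0377 and 0.105). All of them were above 0. Of 70 log2 differences of the 10 genes, 34 changed sign in at least 1 fit without a library (up to 0.287 in size) and 4 under another alternative named at the outset (up to 0.0767), so the direction of small differences is not settled with 3 hearts a group.

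As single libraries were left out, the mean IR difference ranged from -0.1076 to 0.1233 for Adgre1, -0.25 to 0.03961 for Mrc1, -0.12 to 0.08235 for Cx3cr1, -0.06312 to 0.01903 for Ciita and -0.0565 to 0.26 for Folr2. Slit2-IR against C57-IR ranged from -0.53 to 0.19 for Cd74 and -0.62 to 0.15 for H2-Aa, both above 0 only without C57-IR replicate 2, from -0.1065 to 0.05719 for Csf1r and from -0.3524 to 0.004997 for Mrc1. Slit2-non-IR against C57-non-IR ranged from -0.48 to 0.02505 for Lyve1, above 0 only without Slit2-non-IR replicate 1, and from -0.2206 to 0.3656 for Mrc1, below 0 only without C57-non-IR replicate 1. The interaction ranged from -0.2642 to 0.4625 for Cd74 and from -0.171 to 0.2352 for Cx3cr1. With C57-IR library 2 and Slit2-IR library 1 left out, Slit2-IR against C57-IR gave 0.15 for Cd163, 0.32 for Cd74, 0.36 for H2-Aa, 0.1123 for Csf1r and 0.07838 for Mrc1. The first of these libraries was picked for its high class II values, so this moves Cd74 and H2-Aa by construction. Slit2-IR library 1 was the lowest of its group for each of these genes, so leaving it out raises their Slit2-IR level. With the 4 libraries numbered 1 left out, Ciita was at 0.01017 in the mean IR difference, Mrc1 at -0.134 in Slit2-non-IR against C57-non-IR and Cd74 at -0.0766 in the interaction, and Cd68 was at -0.008264 between the Slit2-Tg groups when scaled to non-mitochondrial reads. The cause of the other changes was not tested. In the mean IR difference Tnf, Irf1, Irf8 and Ccl7 passed in 20 of 20 alternatives, Tlr2 and Pdpn in 19 of 20 and Runx1 in 15 of 20. With 15 to 102 reads per library, Ccr2 was the gene most limited by depth.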

Other observations

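Genes of neighbouring tissues varied between libraries of 1 group. The 5 adipose genes summed to 0 to 17.2 FPKM over the 12 libraries and to 0.105 to 17.2 FPKM within the C57-IR hearts. The 4 lung genes summed to 0.0582 to 12.2 FPKM, with 0.0751 to 0.173 FPKM in the 3 Slit2-IR hearts, and were lowest in library 1 in 4 of 4 groups, as were 6 of the 10 genes. The 5 erythroid genes summed to 1.48 to 49.0 FPKM. The 4 tested were lower in IR hearts over both genotypes, with a median log2 difference of -0.85 and 0 called. The part of such tissue in the levels of the 10 genes was not tested.

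Between the genotypes after IR, 0 of 9 tested activation genes passed limma's adjusted p, and 0 were under an unadjusted p of 0.05. In the Slit2-IR group 3 were higher and 6 were lower, with a median log2 difference of -0.16. Of the 9 ligands of the 10 genes, 2 were higher and 7 lower, with a median of -0.27 and 0 called. C57-IR library 2 held the highest values of several of these genes.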
